A study of Mus musculus with 15 samples.

Results

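Atp2b4, Hspb7, Cyp4f18, Sgk1 and Abca9 are 5 of the 11201 genes measured in cultured mouse microglia. They were listed as genes with high values after TGFb and low values after LPS+IFNg, so these values chose them and are given as a description. All 5 symbols were found in the table, and all 5 passed the filter on low values. The cells are ESdM, microglia grown from C57BL/6-ATCC embryonic stem (ES) cells, a culture model that lacks the surroundings of the brain. Untreated cells gave 6 libraries. The other 3 groups had 3 libraries each, from cells kept for 24 h with LPS at 500 ng/ml (lipopolysaccharide, from the wall of bacteria) plus IFNg (interferon gamma) at 20 ng/ml, with IL4 (interleukin 4) at 100 U/ml, or with TGFb (a transforming growth factor) at 50 ng/ml. The groups share the ES cell source and the N2 medium and differ in the agent added. The time of 24 h is recorded for the stimulated groups only, and a matching time for untreated cells is not given.

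The listed pattern held in full for Atp2b4 and Hspb7, in part for Cyp4f18, and not for Sgk1 and Abca9. Atp2b4 and Hspb7 had their highest values with TGFb and their lowest with LPS+IFNg, with no overlap between neighbouring groups at either end. Cyp4f18 was highest with TGFb, and its LPS+IFNg libraries lay below every untreated library. Its untreated level was already near the detection limit, though, and its lowest mean was with IL4. Sgk1 was highest with TGFb and second highest with LPS+IFNg, above every untreated library. Abca9 was lower than untreated with both TGFb and LPS+IFNg. In 4 of the 5 genes every TGFb library lay above every untreated library, as in 23.9% of the tested genes. In 4 of the 5 every LPS+IFNg library lay below every untreated library, as in 24.3% of the tested genes. Atp2b4, Hspb7 and Cyp4f18 were apart in both ways, as were 6.47% of the tested genes. Since the genes were picked on these values, nothing is read from these counts.

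The 5 genes belong to separate protein families. Atp2b4 encodes a plasma membrane pump that uses ATP to move calcium out of the cell. Hspb7 encodes a small heat shock protein known best from heart and skeletal muscle, Cyp4f18 a cytochrome P450 that hydroxylates leukotriene B4, Sgk1 a serine/threonine kinase downstream of PI3-kinase and mTORC2, and Abca9 a membrane transporter of the ABCA subfamily, whose better known members move lipids. TGFb signals through receptor kinases to SMAD transcription factors and is known to maintain the expression profile of microglia in the brain. LPS signals through TLR4 to NF-kappa-B and IFNg through JAK kinases, the pair commonly used to activate macrophages and microglia. IL4 acts through STAT6.

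In GENCODE M21 on GRCm38 (mm10 in the submitters' notes) the 5 genes are protein coding and lie on 5 chromosomes. Atp2b4 spans chr1:133699457-133801041 on the minus strand with 21 exons in its longest transcript. Hspb7 spans chr4:141420779-141425311 on the plus strand with 3 exons, and Cyp4f18 chr8:71988482-72009626 on the minus strand with 13. Sgk1 spans chr10:21882184-21999903 on the plus strand with 14 exons and 13 annotated transcripts. Abca9 spans chr11:110100749-110168196 on the minus strand with 39 exons.

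The sequences before the starts of transcription are shown because 2 of the genes share the pattern in full and the other 3 do not. Windows are the 250 bases before a RefSeq start (GRCm38.p6), 5′ to 3′ on the gene's strand. Any stretch inside an annotated exon of the gene is left out, which removed 43 bases for Abca9. Sgk1 has 6 starts in the table, and the window with the most motif matches is shown, so that choice favours matches. The one start listed for Atp2b4 lies inside the gene's annotated span, and its window is not shown. Capitals mark matches, on either strand, to 5 short motifs: the SMAD box CAGAC, the AP-1 site TGANTCA, the PU.1 core GAGGAA, the kappa-B site of NF-kappa-B and the interferon-stimulated response element (ISRE). The last pair were each searched with 2 free bases in the middle.
Hspb7, chr4:141420529-141420778, plus strand: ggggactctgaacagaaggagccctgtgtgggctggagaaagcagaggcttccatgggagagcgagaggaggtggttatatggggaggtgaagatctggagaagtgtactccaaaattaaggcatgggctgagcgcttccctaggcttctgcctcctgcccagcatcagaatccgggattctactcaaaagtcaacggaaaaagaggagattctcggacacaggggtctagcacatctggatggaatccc
Cyp4f18, chr8:72009627-72009876, minus strand: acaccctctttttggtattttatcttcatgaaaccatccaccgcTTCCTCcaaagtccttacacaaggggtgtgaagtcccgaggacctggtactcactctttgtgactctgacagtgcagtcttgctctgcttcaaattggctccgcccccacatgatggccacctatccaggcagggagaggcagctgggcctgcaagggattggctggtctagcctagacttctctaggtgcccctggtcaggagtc
Sgk1, start 2, chr10:21978422-21978671, plus strand: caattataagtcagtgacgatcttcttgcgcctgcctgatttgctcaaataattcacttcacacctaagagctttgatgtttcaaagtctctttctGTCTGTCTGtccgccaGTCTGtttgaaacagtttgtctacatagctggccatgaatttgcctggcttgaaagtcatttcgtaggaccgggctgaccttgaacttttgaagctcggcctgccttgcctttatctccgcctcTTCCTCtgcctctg
Abca9, chr11:110168197-110168403, minus strand: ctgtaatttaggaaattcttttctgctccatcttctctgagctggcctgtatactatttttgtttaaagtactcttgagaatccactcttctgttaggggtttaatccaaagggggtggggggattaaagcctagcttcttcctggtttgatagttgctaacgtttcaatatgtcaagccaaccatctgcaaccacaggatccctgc

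The window of Hspb7 held no match to any of the 5 motifs. That of Cyp4f18 held 1 PU.1 core, 206 to 201 bases before the start. The full window of Abca9 held 1 PU.1 core, 42 to 37 bases before the start, in the part left out above. The window shown for Sgk1 held 3 SMAD boxes, the first and second of which share 1 base, and a PU.1 core ending 9 bases before the start. Of the other 5 Sgk1 windows none held a SMAD box. The first held an ISRE and a PU.1 core, the fifth and the sixth held a PU.1 core each, and the third and the fourth held no match. Among 32851 windows of the same length, 42.2% held a SMAD box and 2.32% held at least 3, shares that count each window once and so do not match a choice of the best of 6. The PU.1 core was found in 23.3% of them, the AP-1 site in 6.75%, the kappa-B site in 1.21% and the ISRE in 2.98%. A match describes letters in a window and does not show that a factor binds there.

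Values are normalized read counts, which the authors scaled to make libraries comparable and in which the lowest value is 1. Libraries held 2682564 to 18676181 reads, with a median of 7589049. Replicate 3 of the LPS+IFNg group stood apart from replicates 1 and 2 of that group (chi-square of reads per degree of freedom 25.95 and 26.5, against 2.88 between replicates 1 and 2). For the 5 genes the LPS+IFNg mean is therefore given also without replicate 3. Unless stated, other LPS+IFNg values include it. Between IL4 replicates 1 and 3 the same measure was 7.57, against at most 2.91 between untreated and 2.16 between TGFb libraries. Of 20 microglia and macrophage markers 13 were measured, among them Csf1r (2790 ± 140 in untreated cells), Cd68 (7854 ± 358) and Trem2 (1693 ± 55.1). The microglial markers Tmem119, Cx3cr1 and Olfml3 were low in untreated cells (7.62 ± 3.42, 2.60 ± 2.28 and 1.01 ± 0.0320) and higher with TGFb (82.3 ± 7.26, 39.5 ± 6.73 and 239 ± 21.3). The summed marker level was 21587 to 23059 in untreated cells, 19897 to 22285 with LPS+IFNg, 24314 to 24796 with IL4 and 28418 to 30112 with TGFb. P2ry12, Sall1 and 5 further markers of that list were not analysed here. Of the lists for other cell types, the endothelial one (3 of 10 measured) summed to 181 to 238 in untreated cells, 159 to 566 with LPS+IFNg, 202 to 245 with IL4 and 697 to 803 with TGFb. Most of the TGFb sum was Vwf (732 ± 58.7), while Pecam1 stood at 1.54 ± 0.693. With LPS+IFNg Ly6c1 stood at 176 ± 240, against 1 ± 0 in untreated cells, so it varied widely within that group. Pecam1 stood there at 11.1 ± 4.91, against 1.34 ± 0.346 in untreated cells. The neuron list (1 of 10 measured, Syn1) stood at 165 to 223 in untreated cells, 45.2 to 62.8 with LPS+IFNg, 201 to 258 with IL4 and 92.9 to 121 with TGFb. The pluripotent stem cell list (1 of 10 measured, Klf4) stood at 57.4 to 88.7 in untreated cells and 94.4 to 121 with IL4. With LPS+IFNg it stood at 58.9 to 72.3 and with TGFb at 68.3 to 76.8. The astrocyte list (3 of 10 measured) was mostly Aldoc (1471 ± 62.0 in untreated cells). Its sum was 1446 to 1612 in untreated cells, 1392 to 1484 with LPS+IFNg, 1703 to 1837 with IL4 and 1678 to 1899 with TGFb. Fewer cells of a type and less RNA per cell cannot be told apart in these bulk libraries, and the part of these markers in the results was not tested. With limma (adjusted p below 0.05), 58.9% of the 11138 tested genes were called with LPS+IFNg, 17.2% with IL4 and 47.5% with TGFb. The share of calls that were higher depended on the scaling. It was 50.0% with LPS+IFNg, 57.4% with IL4 and 50.8% with TGFb. With each library set to the same total it was 35.5%, 33.9% and 37.8%, and that scaling moved the median of all genes with LPS+IFNg by -0.12 (log2). With quantile normalization it was 38.8%, 47.4% and 45.1%.

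Atp2b4 stood at 158, 152, 159, 149, 129 and 148 normalized counts in the 6 untreated libraries. It stood at 10.1, 8.60 and 2.26 with LPS+IFNg, at 97.4, 84.7 and 82.4 with IL4 and at 923, 948 and 954 with TGFb. The 4 groups did not overlap, in the order TGFb, untreated, IL4, LPS+IFNg. The TGFb mean of 942 ± 16.4 (SD, n = 3) was 6.31-fold above the untreated mean of 149 ± 10.8 (n = 6). The LPS+IFNg mean of 6.98 ± 4.15 rested on 25 reads in all and was 21.4-fold below untreated. Without LPS+IFNg replicate 3 the mean was 9.33. On the log2(value + 1) scale the differences were 2.65 with TGFb and -4.42 with LPS+IFNg (SE 0.25 for each). That was the most negative difference of all 11138 tested genes with LPS+IFNg. Without LPS+IFNg replicate 3 it was -3.86.

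IL4 is the stimulus that the listed pattern does not name, so Atp2b4 was tested there. The test uses the same untreated libraries as the comparisons that chose the gene, so it is not independent of that choice. Atp2b4 was 1.69-fold lower, 88.2 ± 8.08, with a log2 difference of -0.75 (95% interval -1.27 to -0.24) and an adjusted p of 0.0420 by limma. All 3 IL4 libraries lay below all 6 untreated libraries. The call was lost when any 1 library of the 2 groups other than untreated replicate 5 was left out, with log2 differences of -0.83 to -0.71 in all 9 such fits.

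**Figure D1:**
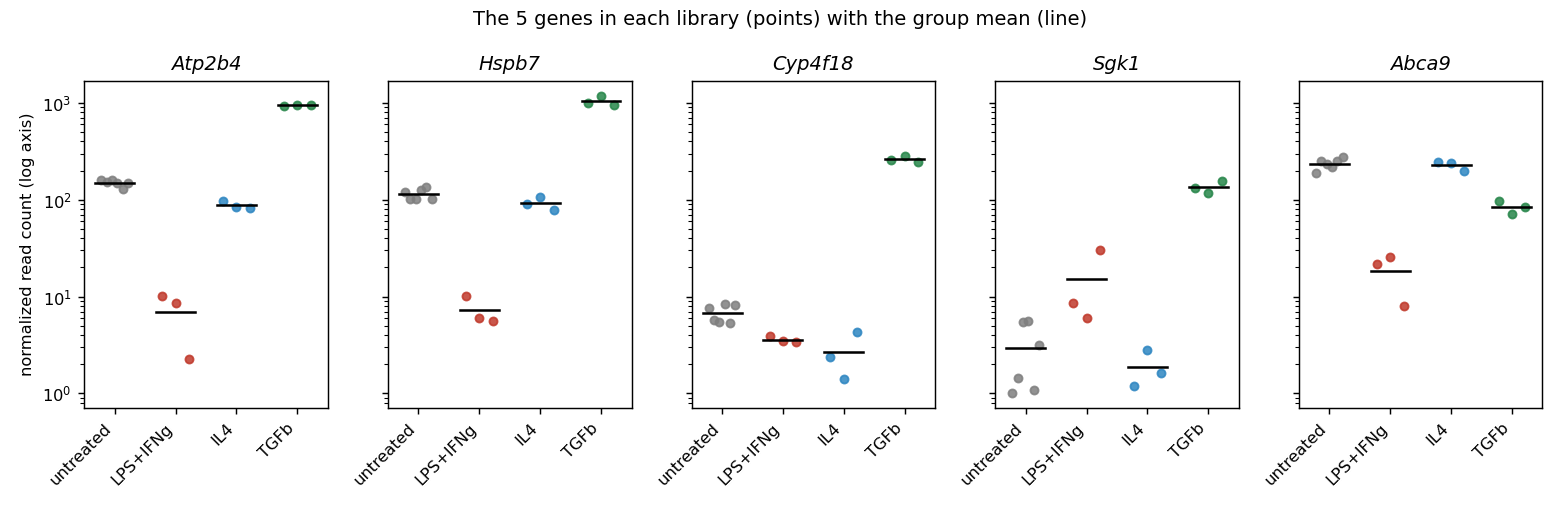
Normalized read count of each of the 5 genes in every library, on a log axis, by group (6 untreated, 3 with each stimulus); points are libraries and bars are group means. Atp2b4 and Hspb7 are highest with TGFb and lowest with LPS+IFNg, Sgk1 with LPS+IFNg lies above untreated, and Abca9 with TGFb lies below untreated.

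Hspb7 stood at 119, 101, 102, 126, 135 and 101 in untreated libraries. It stood at 10.1, 6.02 and 5.65 with LPS+IFNg, at 90.8, 106 and 79.2 with IL4 and at 996, 1182 and 945 with TGFb. TGFb libraries were above and LPS+IFNg libraries below every other library, and the IL4 and untreated ranges overlapped. The TGFb mean of 1041 ± 125 was 9.15-fold above the untreated mean of 114 ± 14.8. The LPS+IFNg mean of 7.25 ± 2.46, from 25 reads, was 15.7-fold below it, and was 8.05 without replicate 3. The log2 differences were 3.18 with TGFb and -3.83 with LPS+IFNg (SE 0.16). With IL4 the mean was 92.0 ± 13.4, a log2 difference of -0.31 (95% interval -0.64 to 0.03, adjusted p = 0.212), which did not pass the test.

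Hspb7 and Atp2b4 ran closely together over the 15 libraries, with a Pearson r of 0.983 on the log2 scale, a description that rests on the shared group differences. Hspb7 is known as a muscle gene, so muscle markers were looked at beside it. Of 12 heart and skeletal muscle markers only Ttn and Des were measured. Des, a muscle intermediate filament gene, stood at 13.3 ± 3.98 in untreated cells, 5.61 ± 2.15 with LPS+IFNg, 11.3 ± 3.30 with IL4 and 30.1 ± 2.88 with TGFb. Ttn stood at 9.13 ± 5.37, 13 ± 3.68, 15.1 ± 3.51 and 3.93 ± 3.33 in the same order. The sum of both was 12.9 to 28.3 in untreated cells, 14.7 to 24.0 with LPS+IFNg, 22.6 to 28.6 with IL4 and 30.6 to 40.6 with TGFb, against Hspb7 values of 945 to 1182 in the TGFb libraries. The other 10 markers, Myh6 and Tnnt2 among them, were not analysed here.

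Cyp4f18 stood at 7.54, 5.75, 5.52, 8.41, 5.39 and 8.20 in untreated libraries. It stood at 3.87, 3.44 and 3.39 with LPS+IFNg, at 2.39, 1.41 and 4.31 with IL4 and at 256, 284 and 247 with TGFb. The TGFb libraries stood far above all others, while the LPS+IFNg and IL4 ranges overlapped just below the untreated range. The TGFb mean of 262 ± 19.3 was 38.5-fold above the untreated mean of 6.80 ± 1.4. The log2 difference of 5.09 (SE 0.26) was the third highest of all tested genes with TGFb. The LPS+IFNg mean of 3.57 ± 0.268 was 1.91-fold below untreated, on 12 reads in the 3 libraries, with a log2 difference of -0.76. Without LPS+IFNg replicate 3 that mean was 3.66. Cyp4f18 passed the filter on low values through its 3 TGFb libraries alone.

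By the test Cyp4f18 was lower with IL4, going from 6.80 ± 1.4 to 2.70 ± 1.47, a log2 difference of -1.13 (95% interval -1.67 to -0.59, adjusted p = 0.00461 by limma). The 3 IL4 libraries, which held 13 reads of the gene in all, lay below all 6 untreated libraries, which held 42. All 9 values lay below 10, the value asked for by the filter, so this call rests on very few reads. Without its TGFb libraries the gene would not have been tested, so the call is given as a description only. Without IL4 replicate 2 the log2 difference was -0.86 and the adjusted p 0.0516. With IL4 17.2% of the tested genes were called and 7.33% were called lower. Atp2b4 and Cyp4f18 were the 2 of the 5 genes called, and nothing is read from this count, since Cyp4f18 passed the filter through its TGFb libraries. Exons of Cyp4f18 overlap those of Zfp961 on the opposite strand, and the use of strand in counting was not given in the sources used here. Zfp961 stood at 93.2 ± 7.88 in untreated cells, 106 ± 23.2 with LPS+IFNg, 83.3 ± 6.44 with IL4 and 73.9 ± 7.60 with TGFb, and the part of its reads in the Cyp4f18 values was not tested. Of the 50-base windows of the longest Cyp4f18 transcript, 5.81% also occur in another gene's transcripts, mostly in Zfp961.

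Sgk1 stood at 1.00 (the lowest value the table allows), 1.44, 5.52, 5.6, 1.08 and 3.13 in untreated libraries. It stood at 8.52, 6.02 and 30.5 with LPS+IFNg, at 1.20, 2.82 and 1.62 with IL4 and at 131, 117 and 156 with TGFb. The TGFb libraries were the highest and the LPS+IFNg libraries came next, the lowest of them just above the highest untreated one. The TGFb mean of 135 ± 19.3 was 45.5-fold above the untreated mean of 2.96 ± 2.16, a log2 difference of 5.27 (SE 0.47), second highest of all tested genes. The LPS+IFNg mean was 15 ± 13.5 and rested on 45 reads, and was 7.27 without replicate 3. The log2 difference with LPS+IFNg was 1.88, and 1.23 without that replicate. The sign of this difference is opposite to the listed pattern. With IL4 the log2 difference of -0.32 (95% interval -1.30 to 0.67, adjusted p = 0.711) did not pass the test, on 7 reads against 17 in untreated cells. Sgk1 passed the filter on low values through its 3 TGFb libraries and LPS+IFNg replicate 3, so its untreated and IL4 levels are known with little precision.

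Abca9 stood at 187, 250, 234, 216, 251 and 275 in untreated libraries. It stood at 21.7, 25.8 and 7.90 with LPS+IFNg, at 244, 241 and 200 with IL4 and at 98.1, 70.4 and 83.3 with TGFb. Untreated and IL4 libraries overlapped, TGFb libraries lay below both, and LPS+IFNg libraries lay below all others. The LPS+IFNg mean of 18.5 ± 9.37 was 12.8-fold below the untreated mean of 235 ± 30.9, and was 23.7 without replicate 3. The TGFb mean of 84.0 ± 13.9 was 2.80-fold below untreated. The log2 differences were -3.74 with LPS+IFNg (-3.25 without replicate 3) and -1.48 with TGFb (SE 0.24). Syn1, the neuron list gene given above, had the same order of group means as Abca9 apart from IL4, where it stood at 237 ± 31.7 against 197 ± 22.4 untreated, and its part was not tested. Among all tested genes the Abca9 differences were the fifth lowest with LPS+IFNg and the 51st lowest with TGFb. With IL4 the log2 difference was -0.04 (95% interval -0.54 to 0.46, adjusted p = 0.945), which did not pass the test and leaves room for changes of up to those bounds.

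**Figure D2:**
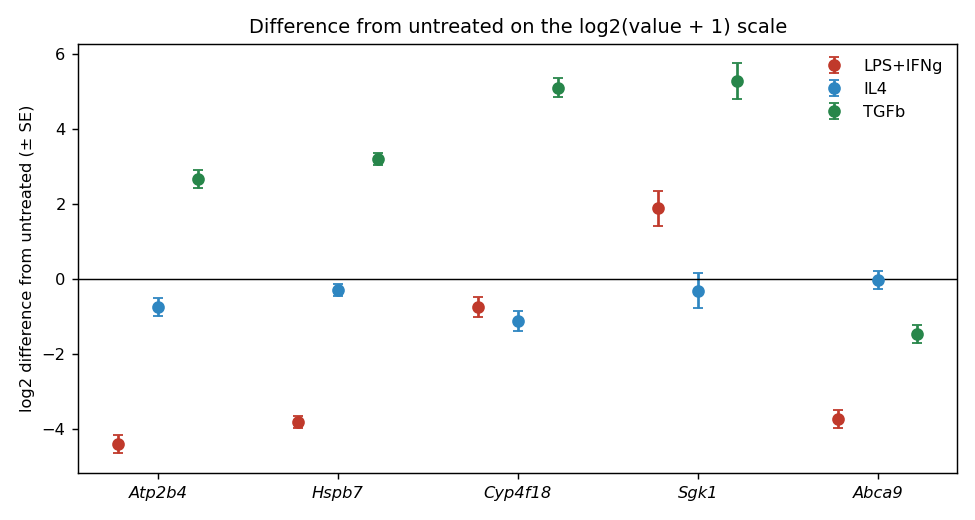
Log2 difference from untreated, on the log2(value + 1) scale, for each of the 5 genes (x axis) with each stimulus; points are estimates of 1 fit over 15 libraries and bars are ± SE. The TGFb points of Atp2b4, Hspb7, Cyp4f18 and Sgk1 lie between 2.65 and 5.27 and that of Abca9 at -1.48, while the LPS+IFNg point of Sgk1 lies at 1.88.

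Levels of different genes were compared per kilobase of the longest transcript. In untreated cells Hspb7 (41.1 ± 5.35 normalized counts per kilobase) and Abca9 (36.9 ± 4.84) were the highest, followed by Atp2b4 (12.7 ± 0.922), Cyp4f18 (4.0 ± 0.824) and Sgk1 (0.956 ± 0.697). With TGFb the order of these levels was Hspb7 (376 ± 45.1), Cyp4f18 (154 ± 11.4), Atp2b4 (80.3 ± 1.4), Sgk1 (43.5 ± 6.24) and Abca9 (13.2 ± 2.17). Abca9 thus went from near the top of the 5 to the lowest level. With LPS+IFNg all 5 lay between 0.595 and 4.85 per kilobase.

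The measured relatives of the 5 genes were next compared with untreated by limma. Atp2b1, the other plasma membrane calcium pump gene measured, was abundant (3280 ± 153 in untreated cells). It fell with TGFb by 0.31 (adjusted p = 0.000102) and with LPS+IFNg by 0.20 (adjusted p = 0.00403) on the log2 scale. Of the genes grouped with Hspb7 by symbol, Hspb6 was lower with TGFb (log2 difference -0.31, adjusted p = 0.0159). That call was lost without TGFb replicate 2 (-0.25, adjusted p = 0.0941). Hspb11, grouped here by its symbol alone, was higher with TGFb (0.37, adjusted p = 0.00875). That call was lost without TGFb replicate 3 (0.28, adjusted p = 0.0811). The sizes for Atp2b1, Hspb6 and Hspb11 were far below those of Atp2b4 and Hspb7.

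Among the Cyp4f genes, Cyp4f16 rose with TGFb from 64.2 ± 11.4 to 208 ± 11.5 (log2 difference 1.70, adjusted p = 1.63e-08) and did not pass the test with LPS+IFNg (-0.15, adjusted p = 0.381). Cyp4f13 rose with TGFb (0.75, adjusted p = 2.93e-05) and with LPS+IFNg (0.62, adjusted p = 0.000144). Cyp4f37, a low gene, went from 15.4 ± 3.63 in untreated cells to 1.24 ± 0.415 with LPS+IFNg (adjusted p = 2.02e-08), at or near the lowest value of the table. With TGFb it stood at 25.6 ± 1.77 (log2 difference 0.73, adjusted p = 0.0259), a call lost when TGFb replicate 1, 2 or 3 was left out (log2 differences 0.78, 0.73 and 0.68) and under quantile normalization (0.56). With IL4, Cyp4f16 (adjusted p = 0.0569), Cyp4f13 (0.157) and Cyp4f37 (0.528) did not pass the test.

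Sgk3, the one other SGK kinase gene measured, fell with LPS+IFNg from 153 ± 16.4 to 57.6 ± 22.5 (log2 difference -1.47, adjusted p = 1.36e-06). With TGFb it stood at 200 ± 13.4 (0.39, adjusted p = 0.0859), which did not pass. The sign of the LPS+IFNg difference was thus positive for Sgk1 and negative for Sgk3.

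Of the 7 measured ABCA relatives of Abca9, Abca6 had the same 2 signs as Abca9. Abca6 stood at 49.3 ± 3.62 in untreated cells, 11 ± 1.57 with LPS+IFNg, 35.2 ± 6.64 with IL4 and 24.6 ± 6.06 with TGFb. It fell with LPS+IFNg (log2 difference -2.08, adjusted p = 1.49e-08) and with TGFb (-1.0, adjusted p = 0.000203), and did not pass the test with IL4 (-0.49, adjusted p = 0.0790). Abca6 lies beside Abca9 on the same strand (chr11:110176820-110251776). Of the 50-base windows of Abca9 0.205% also occur in Abca6, and the part of shared reads in these values was not tested. The 2 further measured genes of this chromosome 11 stretch were Abca5 (chr11:110269369-110337716) and Abca8b (chr11:109932190-109995845), and neither passed the test with TGFb (log2 differences 0.12 and -0.39). Elsewhere in the genome, Abca1, Abca2, Abca3 and Abca7 rose with TGFb by 0.30, 0.43, 0.19 and 0.31. The call of Abca1 was lost under quantile normalization (0.14), and that of Abca3 with equal totals (0.11) and without TGFb replicate 1 (0.14).

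**Figure D3:**
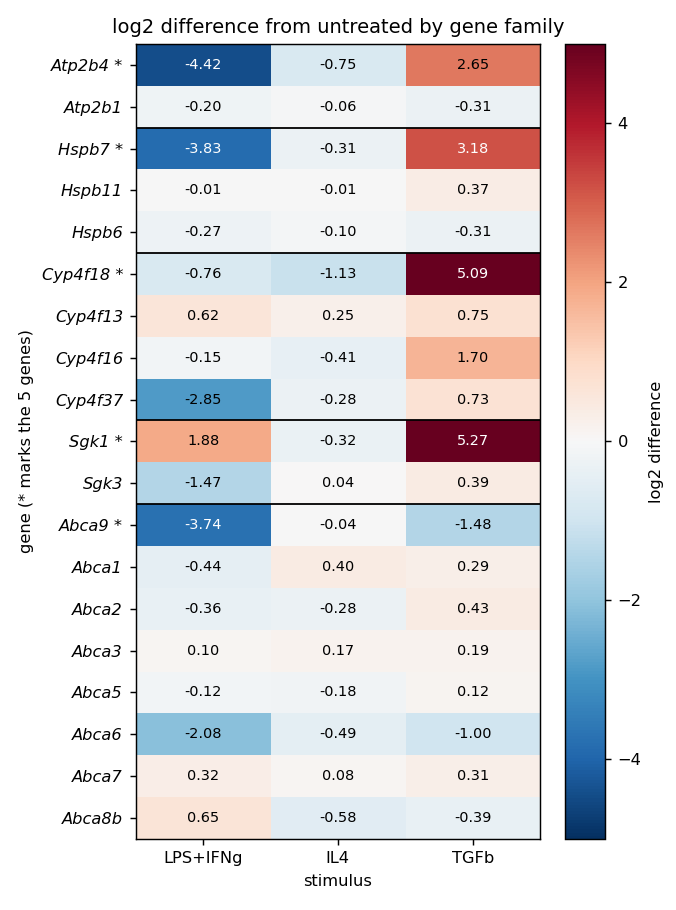
Log2 difference from untreated with LPS+IFNg, IL4 and TGFb (columns) for the 5 genes, marked with a star, and their measured relatives by symbol (rows). Values are written in each cell and coloured from blue (lower) to red (higher). Abca6 is the relative with the most negative TGFb value (-1.0), and Cyp4f16 (1.70) the one with the highest.

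The pathways around the 5 genes were described by gene lists, counting tested list genes other than the 5. Of 27 TGFb signalling and feedback genes, 17 rose and 2 fell with TGFb, where 24.1% of all tested genes rose and 23.4% fell. The median log2 difference of the list was 0.54, against 0.01 over all tested genes. Skil and Ski, which encode SMAD co-repressors, rose from 33.8 ± 7.03 to 759 ± 12.1 and from 513 ± 66.1 to 1557 ± 20.5. The inhibitory SMAD gene Smad7 rose from 29.5 ± 4.53 to 207 ± 7.75. With LPS+IFNg 10 genes of the list rose and 7 fell, where 29.5% of all tested genes rose and 29.4% fell. Skil (117 ± 7.11) rose there too, while Ski fell (354 ± 25.5). With IL4 2 rose and 1 fell, where 9.89% of all tested genes rose and 7.33% fell. Unlike Atp2b4 and Hspb7, Skil was therefore above untreated with both stimuli, as Sgk1 was.

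In the 2 calcium handling lists no call with TGFb or LPS+IFNg reached 1 on the log2 scale. Of 6 other calcium pump and exchanger genes, 1 rose and 3 fell with TGFb and likewise 1 and 3 with LPS+IFNg. Atp2c1, a Golgi calcium pump gene, rose with TGFb (638 ± 40.1 to 1008 ± 45.2, adjusted p = 3.83e-08) and fell with LPS+IFNg (to 463 ± 16, adjusted p = 2.05e-06). The endoplasmic reticulum pump gene Atp2a2 fell with LPS+IFNg (3650 ± 210.3 to 2642 ± 311, adjusted p = 3.74e-06). Of 27 calcium entry and release genes, 9 rose and 6 fell with TGFb, and 6 rose and 12 fell with LPS+IFNg. The shares over all tested genes were 24.1% and 23.4% with TGFb and 29.5% and 29.4% with LPS+IFNg. Nfatc2, a calcineurin-regulated transcription factor gene, rose with TGFb (671 ± 39.5 to 1269 ± 68.6, adjusted p = 6.03e-10) and fell with LPS+IFNg (to 393 ± 22.5, adjusted p = 2.58e-09). Medians of both lists with TGFb, -0.04 and 0.01, were near that of all genes.

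Of 20 heat shock response genes, 2 rose and 10 fell with TGFb, where 24.1% of all tested genes rose and 23.4% fell. The median log2 difference of the list was -0.19. The chaperone genes Hsp90aa1 (10910 ± 484 to 6051 ± 131), Hspd1 (6445 ± 166 to 4050 ± 75.3) and Hspa9 (7026 ± 199 to 4775 ± 97.3) fell, with adjusted p-values of 2.77e-10, 3.75e-09 and 2.96e-09. With LPS+IFNg 3 rose and 7 fell, where 29.5% and 29.4% of all tested genes did. Of the 7 other genes on the small heat shock and co-chaperone list, 2 rose and 3 fell with TGFb and 3 fell with LPS+IFNg. Bag3, a co-chaperone gene of small heat shock proteins, rose with TGFb from 258 ± 19.0 to 366 ± 12.6 (adjusted p = 3.98e-05).

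Of 7 leukotriene genes other than Cyp4f18, 1 rose and 3 fell with TGFb, where 24.1% and 23.4% of all tested genes did. With LPS+IFNg 2 rose and 3 fell, against 29.5% and 29.4% of all tested genes. Alox5ap, which encodes the 5-lipoxygenase activating protein needed to make leukotrienes, rose with TGFb from 1999 ± 52.7 to 3753 ± 153 (adjusted p = 6e-11) and fell with LPS+IFNg to 1409 ± 131 (adjusted p = 6.28e-08). Ptgr1, a reductase gene whose product oxidises leukotriene B4, fell with TGFb (1350 ± 110 to 905 ± 36.2, adjusted p = 0.000747). Of 5 other CYP4 list genes, 4 rose and 1 fell with TGFb. The latter was Por, the gene of the P450 electron donor (1618 ± 68.3 to 1260 ± 74.8, adjusted p = 0.0002).

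The counts of the next 3 lists stand beside 24.1% of all tested genes higher and 23.4% lower with TGFb, and 29.5% higher and 29.4% lower with LPS+IFNg. Of 23 SGK and mTORC2 pathway genes other than Sgk1, 3 rose and 6 fell with TGFb, and 3 rose and 11 fell with LPS+IFNg. Ndrg1, whose product is an SGK1 substrate, fell with TGFb (2851 ± 189 to 1780 ± 162, adjusted p = 7.18e-05). Sgk1 is also known as a glucocorticoid target. Of 14 other such targets 7 rose and 1 fell with TGFb, with a median of 0.32. Fkbp5 rose from 417 ± 20.0 to 531 ± 3.03 (adjusted p = 0.00105), and no call in that list with TGFb reached 1 on the log2 scale. Of 22 ABC transporter genes outside the ABCA family, 7 rose and 8 fell with TGFb and 3 rose and 16 fell with LPS+IFNg. Abcc3 rose with TGFb from 147 ± 16.5 to 544 ± 25.4 (adjusted p = 3.12e-11), and Abcd2 fell with LPS+IFNg from 120 ± 11.7 to 35.1 ± 6.94 (adjusted p = 2.49e-10).

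Some of these list counts depended on the scaling. The calls over all tested genes moved too. In the main fit 2686 genes rose and 2604 fell with TGFb, 3284 and 3278 with LPS+IFNg, and 1101 and 816 with IL4. With each library set to the same total these were 2029 and 3343, 2427 and 4416, and 744 and 1448. In that setting 8 calcium entry and release genes rose and 9 fell with TGFb, and 4 rose and 16 fell with LPS+IFNg. Other ABC transporters then counted 4 and 10 with TGFb, SGK and mTORC2 genes 2 and 7, and leukotriene genes 1 and 5. With LPS+IFNg heat shock response genes counted 2 and 10, leukotriene genes 1 and 3, and small heat shock and co-chaperone genes 0 and 6. The TGFb signalling list counted 17 and 3 with TGFb and 1 and 2 with IL4. With quantile normalization 2417 of all tested genes rose and 2939 fell with TGFb, and 2652 and 4179 with LPS+IFNg. Heat shock response genes then counted 1 and 9 with LPS+IFNg, and other ABC transporters 5 and 9 with TGFb.

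The pattern itself, called higher with TGFb and called lower with LPS+IFNg, both by at least 1 on the log2 scale, was met by 57 of 11138 genes (0.512%). All comparisons share the untreated libraries. Hspb7 and Atp2b4 were among the 57 and headed them by the smaller of the 2 differences, a description from which nothing is read, since the 5 genes were picked on these values. The next by that rank, leaving out RIKEN clones and genes whose highest group mean was under 50, were Ipcef1 (2.51 with TGFb and -2.98 with LPS+IFNg) and Slc36a2, an amino acid transporter gene (2.18 and -2.33). The apolipoprotein genes Apoc1 (3.45 and -2.02) and Apoe (1.92 and -1.81) followed. Apoe was by far the most abundant of those named, at 15731 in untreated and 59321 in TGFb-treated cells. Fam131a (1.73 and -2.72), Adssl1, a muscle-type purine synthesis gene (1.81 and -1.72), the immediate-early genes Egr3 (1.72 and -2.08) and Fos (2.11 and -1.64), the angiotensinogen gene Agt (1.70 and -3.23) and the microglial marker Tmem119 (3.37 and -1.59) completed the 10 named. The 57 genes thus included lipid carriers, transcription factors and a microglial marker beside the calcium pump and the small heat shock protein. Ipcef1 and Agt stood at 1 ± 0 with LPS+IFNg, the lowest possible value, from 15.6 and 18.7 in untreated cells. Apoc1 (8.32 to 1.04), Fam131a (18.8 to 1.97) and Tmem119 (7.62 to 1.86) came near it. The sizes of these falls are bounded by that lowest value. With 1 library left out, the LPS+IFNg difference was -2.17 to -1.17 for Fos and -2.49 to -1.62 for Egr3.

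With IL4 these genes moved in different directions. Of the 57, 8 rose and 7 fell and 42 did not pass the test, where 9.89% of all tested genes rose and 7.33% fell. Slc36a2 fell, like Atp2b4, by 0.45 (adjusted p = 0.00724). Tmem119 fell from 7.62 ± 3.42 to 2.03 ± 0.903 (log2 difference -1.45, adjusted p = 0.00998), a call lost without IL4 replicate 2 (-1.18, adjusted p = 0.0853). Both Tmem119 means lay below 10, the value asked for by the filter, and the IL4 mean lay near the lowest possible value of 1. Apoe was higher (0.43, adjusted p = 0.00118), a call lost under quantile normalization (0.17, adjusted p = 0.328).

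**Figure D4:**
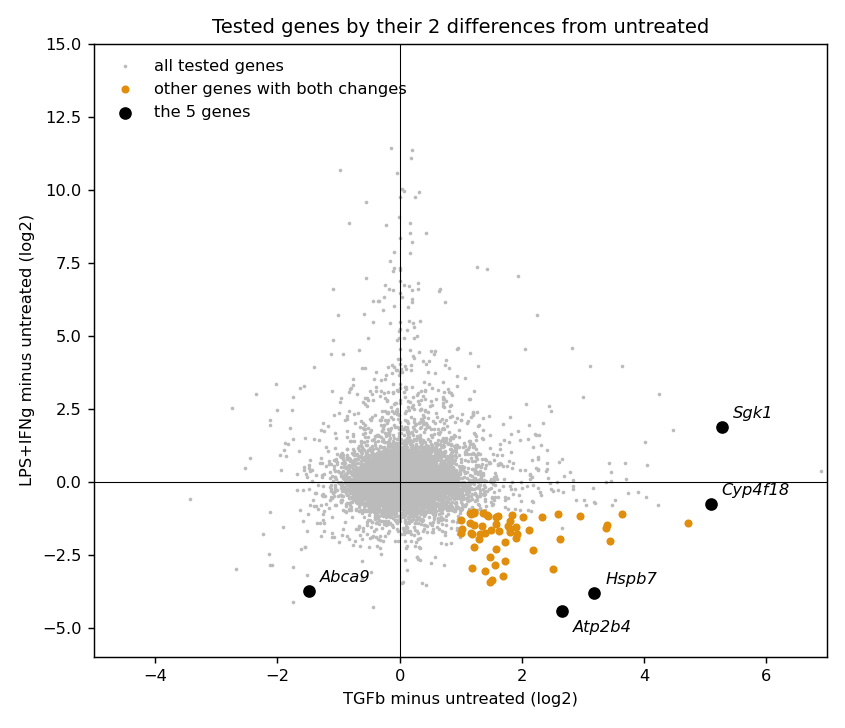
Log2 difference from untreated with TGFb (x axis) and with LPS+IFNg (y axis) for the tested genes (grey), the genes other than the 5 with both changes of at least 1 (orange) and the 5 genes (black). Atp2b4 and Hspb7 sit at the lower right, Cyp4f18 lies far right near 0 on the y axis (-0.76), Sgk1 in the upper right (5.27 and 1.88) and Abca9 at the lower left (-1.48 and -3.74).

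The genes whose log2 values ran most like each of the 5 over the 15 libraries are given as a description, since libraries of a group share its stimulus. For Atp2b4 they were Epb4.1l1 (Pearson r 0.994), Shc1 (0.993) and Fhod1 (0.988). Fhod1, a formin gene, stood at 731 ± 45.9 untreated, 284 ± 66.8 with LPS+IFNg, 550 ± 18.3 with IL4 and 1407 ± 45.8 with TGFb, the same order as Atp2b4. For Hspb7 they were the kinesin gene Kif21b (0.991), Slc36a2 (0.990) and Adssl1 (0.990). Cyp4f18 ran most like Pdlim7 (0.992) and the formin genes Inf2 (0.988) and Fmnl3 (0.982). Fmnl3 stood at 582 ± 29.4 untreated, 461 ± 38.4 with LPS+IFNg, 307 ± 30.1 with IL4 and 2866 ± 88.6 with TGFb. Sgk1 ran most like Fndc3b (0.975), Hsd3b7 (0.972) and the lysosomal membrane protein gene Scarb2 (0.967). Abca9 ran most like Camk2a (0.986), Fam84b (0.985) and the IGF-binding protein gene Igfbp4 (0.982). Igfbp4 stood at 832 ± 51.2 untreated, 217 ± 55.5 with LPS+IFNg, 708 ± 55.3 with IL4 and 544 ± 16.6 with TGFb.

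Among the 5 genes themselves, Pearson r over the 15 libraries was 0.983 between Atp2b4 and Hspb7 and 0.852 between Cyp4f18 and Sgk1. Cyp4f18 gave 0.785 with Hspb7 and 0.736 with Atp2b4. Abca9 gave 0.608 with Atp2b4, 0.520 with Hspb7, -0.08 with Cyp4f18 and -0.50 with Sgk1. Sgk1 gave 0.441 with Hspb7 and 0.344 with Atp2b4. The 5 genes thus held 1 closely matched pair, with Abca9 and Sgk1 furthest from each other.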

How the data were processed

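Per the labels' protocols, TRIZOL extraction was followed by library preparation with Illumina's TruSeq RNA kit. The submitters' processing notes name TopHat2 2.0.3, Partek 6.6, R 3.0.2, DESeq2 and mm10. Annotation, counting rule and use of strand are not given in the sources used here. The deposited signal is a normalized read count, inferred from the values to be reads divided by 1 factor per library, with values below 1 set to 1. Reads recovered from it were whole for 100% of values above 1, within 0.1 reads. All 15 value columns were used. Nothing in the labels says whether libraries came from separate cultures, so p-values measure only how these libraries vary among themselves, which may be technical.

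Log2(value + 1) was fitted with limma 3.58.1 (R 4.3.3, empirical Bayes trend, 1 fit over 15 libraries). Genes were tested if 3 or more libraries reached a value of 10 (11138 genes), with Benjamini-Hochberg adjustment over all of them and calls at 0.05. Differences on this scale understate the change of low genes. For the 5 genes p-values are given with IL4 only, and their calls with TGFb and LPS+IFNg serve only to describe the pattern. In simulated libraries, 60% of 50 genes changed 1.5-fold with IL4 and 94% of 50 changed 2-fold were recovered among 11138 genes. Every simulated gene was given the same dispersion, and the changed genes were all raised. These shares may therefore differ from those in the measured libraries.

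The 5 genes and all lists were chosen with earlier results of these data known. Named genes were measured relatives, up to 4 called genes per list and comparison, up to 10 genes with the pattern ranked by the smaller difference, and 3 most correlated genes for each of the 5, with predicted genes, RIKEN clones, ribosomal protein and microRNA genes left out of the ranked parts. Marker and overlapping genes, and Abcd2 as a list gene, are named in addition. Some list genes that the rule names are not reported here. The alternatives tried were other pseudocounts, filters, scalings, samples in the fit and no trend, and leaving out libraries.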

Additional observations from a re-analysis of the deposited data

Results flagged for a closer look

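For each of 122 named genes it was asked whether 1 of the 6 untreated libraries lay far from the other 5. This was so for 8, close to the 1 in 20 that chance gives. Atp2b4 stood at 129 in untreated replicate 5, where the nearest other untreated library stood at 148. Abca6 stood at 56.0 in untreated replicate 4, against at most 49.7 in the others. In the same library Abcb4 (227), Abce1 (2415), Ipcef1 (28.0), Nedd4 (2992) and Ppp3r1 (1006) also stood apart from the other 5. This library has the fewest reads, 2682564. Ahsa1 stood at 1596 in untreated replicate 5.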

How the results depend on the processing

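No paired analysis was possible because replicate numbers follow accession order and pair no libraries. The planned edgeR and DESeq2 tests were not run, because values below 1 were set to 1 in the table and not all low reads can be recovered. The 57 genes with the pattern became 36 with a pseudocount of 5 and 36 with a minimum value of 50, and 53 to 62 with 1 library left out. With equal totals 65 genes had the pattern, 54 of them among the 57. Under quantile normalization 66 had it, 50 of them among the 57, and Cyp4f18 was then in the set beside Atp2b4 and Hspb7.

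With IL4, Atp2b4 was no longer called with a pseudocount of 0.5 (-0.76, adjusted p = 0.0607), without the trend (-0.75, 0.0831) or after dropping the 3 libraries of lowest depth (-0.73, 0.131), which left 1 of the 5 genes called in each. With 1 library left out, its difference was -0.83 to -0.71, that of Cyp4f18 -1.43 to -0.86 and that of Abca9 -0.10 to 0.056, and 0 to 2 of the 5 genes were called. Abca9 turned to 0.01 without untreated replicate 6 and 0.056 without IL4 replicate 3. A pseudocount of 5 gave 4.51 for Cyp4f18 and 4.17 for Sgk1 with TGFb, and -3.75 for Atp2b4 and -3.29 for Hspb7 with LPS+IFNg, since it shrinks low values. Quantile normalization gave -1.13 for Cyp4f18 with LPS+IFNg. Without 1 library the LPS+IFNg difference was -4.75 to -3.86 for Atp2b4 and -4.05 to -3.25 for Abca9.

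Over all tested genes the calls with IL4, 1101 higher and 816 lower, were 744 and 1448 with equal totals. Under quantile normalization 929 were higher. The list genes called with IL4, 24 higher and 14 lower, were 13 and 24 with equal totals, and 15 were higher under quantile normalization. Without the 3 libraries with the fewest reads 8 were lower. Leaving out 1 library gave 12 to 26 higher and 4 to 15 lower, with 12 and 4 without IL4 replicate 2, 6 lower without IL4 replicate 3 and 9 lower without untreated replicate 1.

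Of 169 named calls, 134 were kept in every alternative run. The differences that changed sign besides that of Abca9 belonged to genes that did not pass the test. Equal totals gave -0.029 for Abca3 with LPS+IFNg and -0.027 for Sgk3 with IL4, the latter also -0.027 without the 3 shallowest libraries, and quantile normalization gave 0.0040 for Hspb11 with IL4. With 1 library left out, the IL4 difference was -0.10 to 0.0095 for Atp2b1, -0.10 to 0.048 for Hspb11 and -0.0018 to 0.085 for Sgk3, and the LPS+IFNg difference was -0.036 to 0.021 for Hspb11 and -0.0011 to 0.29 for Zfp961. The cause of these changes was not tested.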
